A study of Mus musculus with 4 samples.

Results

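In 4 tissues of wild-type mouse embryos, CTCF binding was mapped by chromatin immunoprecipitation and sequencing (ChIP-seq), and 555 dense runs of neighbouring CTCF regions were found on chromosomes 1 to 19. The runs were chosen by the positions of the deposited peak calls. Peaks of the 4 lists that shared at least 1 base were joined to 1 region, regions with at most 3000 bases between them were chained, and chains of 4 or more regions were kept. The runs held 2385 of 118663 regions, or 2.01%. Of the rest, 81992 regions stood alone, 27344 formed pairs and 6942 formed runs of 3. Closeness of the regions is therefore the rule and not a result, and a tissue with a longer list could add more members.

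All embryos were WT and of the strain B6CBAF1, and all libraries were made with an antibody against CTCF. The posterior trunk library is labelled embryonic day (E) 10 and pooled the tail end of about 30 embryos staged from E9.75, with presomitic mesoderm, tailbud and some somites. The brain library came from a pool of telencephalon of 6 embryos at E12.5. The proximal and distal parts of the forelimb were dissected at E12.5, and both are titled as re-analysed data. Each tissue had 1 library, so differences between tissues could not be checked against replicates, and in such bulk samples fewer cells that hold CTCF at a site cannot be told apart from less CTCF per cell. On chromosomes 1 to 19 the posterior trunk list held 103901 peaks and the brain list 72022, and the lists of distal forelimb and proximal forelimb held 63005 and 62082. Read totals are not in the lists. The lowest local background, taken here as a measure of relative depth, was 9.34 reads in posterior trunk and 8.53 in brain, with 4.23 in distal forelimb and 4.58 in proximal forelimb, so posterior trunk and brain stood at 2.21 and 2.02 times the value of distal forelimb. Read extension and any control library, which are not stated, could also set this value.

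CTCF is a DNA-binding protein with many zinc fingers that stops the loop-extruding cohesin complex, and pairs of CTCF sites facing each other commonly anchor chromatin loops. Its sites lie at the borders of topological domains, and single sites at a border are often backed by neighbours, so that loss of 1 site can leave a border in place. Known rows of close sites include the 3′ end of the immunoglobulin heavy chain locus and the Hox clusters, where sites separate genes that are active from genes that are silent. Most CTCF sites are used in many cell types.

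The core of the CTCF motif is known to begin near CCACNAG and to end near GGNGGCAG, where N is any base. The patterns can share bases and were counted apart. Both were searched on both strands in the part of RefSeq promoter windows that lies before the gene start (GRCm38.p6, the same assembly as mm10). The windows below are 6 of the 12 windows with a match within 50 bases of a peak summit of a run region. They were chosen after their values were seen and do not show the whole range of calls. Capitals mark the match on the gene's strand, so a match on the opposite strand appears as its reverse complement, and each window is given 5′ to 3′ on the strand of its gene.
Krtcap2, chr3:89246332-89246408, plus strand: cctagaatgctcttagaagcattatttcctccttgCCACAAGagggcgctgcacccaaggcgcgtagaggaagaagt
Polr3e, chr7:120917657-120917733, plus strand: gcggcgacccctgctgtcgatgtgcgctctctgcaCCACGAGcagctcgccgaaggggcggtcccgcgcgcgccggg
Serinc3, chr2:163645184-163645315, minus strand: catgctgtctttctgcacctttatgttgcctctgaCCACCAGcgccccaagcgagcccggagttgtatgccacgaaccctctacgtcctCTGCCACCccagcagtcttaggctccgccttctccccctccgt
B230208H11Rik, chr10:12923230-12923307, minus strand: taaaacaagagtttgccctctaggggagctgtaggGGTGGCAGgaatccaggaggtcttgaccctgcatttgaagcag
Sdk2, chr11:114067030-114067080, minus strand: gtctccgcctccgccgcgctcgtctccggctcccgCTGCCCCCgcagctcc
Zfp37, chr4:62208226-62208302, minus strand: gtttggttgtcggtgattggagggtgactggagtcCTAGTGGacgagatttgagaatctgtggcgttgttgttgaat

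The first 4 of these windows lay in regions called in all 4 tissues, and the last 2 did not. Peaks were ranked by p in the list they came from, and a rank percentile of 100 is the strongest. The region at Krtcap2, a subunit of the enzyme complex that adds sugar chains to proteins, stood at percentile 82.2 in posterior trunk and 86.9 in brain, with 93.3 in distal forelimb and 93.2 in proximal forelimb. The region at Polr3e, a subunit of RNA polymerase III, stood at 87.7, 89.0, 92.7 and 92.9 in the same order of tissues. The regions at Serinc3 and at B230208H11Rik stood at 77.8, 71.3, 67.5 and 68.2 and at 82.8, 74.5, 70.2 and 69.2. A weaker region called in all 4 tissues, at 9330102E08Rik, whose window is not printed, stood at 31.4, 34.0, 20.4 and 29.1. At the promoter of Sdk2, a cell adhesion molecule of synapses, the peak was called at percentile 37.5 by brain, 0.54 by distal forelimb and 9.52 by proximal forelimb, and not by posterior trunk. At the promoter of Zfp37, a zinc finger gene, it was called in posterior trunk only, at percentile 48.3, with the summit 2 bases from the match. Of 130 promoter windows in run regions, 16 (12.3%) held GGNGGCAG, against 1050 of 5927 (17.7%) of the promoter windows in any region and 12.7% of all 31363 promoter windows. CCACNAG was in 27 (20.8%), against 19.6% in any region and 15.1% of all. A match is a description of these letters and not a mapped site.

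Regions of runs were called in all 4 tissues more often, and in 1 tissue only less often, than regions at large. In the runs 1192 of 2385 regions were called in all 4 tissues, or 49.98% (Wilson 95% interval 48.0 to 52.0%), against 42.3% of all regions. Called in 1 tissue only were 720 run regions, or 30.2%, against 39.8% of all regions. These intervals cover counting error only, and regions of 1 run share their surroundings and are not independent. The difference in regions called in all 4 tissues was 7.70 percentage points. It was 2.59 points when regions with a local background over 5 times the lowest of the list were left out before chaining, a setting added after the data were seen.

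Posterior trunk supplied most of the single-tissue regions, in the runs as elsewhere. Trunk-only regions were 512 in the runs, or 21.5%, against 28.5% of all regions. Brain-only regions were 129, or 5.41%, against 5.94%. Distal forelimb only held for 34, or 1.43%, against 3.13%, and proximal forelimb only for 45, or 1.89%, against 2.25%. Taken tissue by tissue, posterior trunk called 2123 run regions, or 89.0%, against 87.5% of all regions, brain 1674, or 70.2%, against 60.3%, distal forelimb 1395, or 58.5%, against 52.6%, and proximal forelimb 1453, or 60.9%, against 51.9%. Each tissue thus called a larger share of run regions than of all regions, with the smallest step in posterior trunk.

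The mix changed step by step with the number of chained regions, up to 5. The share called in all 4 tissues was 41.2% of lone regions, 43.8% in pairs, 46.8% in runs of 3, 49.4% in runs of 4 and 55.0% in runs of 5. It was lower again, at 45.6%, in the 33 runs of 6 or more. Single-tissue regions went the other way, at 41.4, 37.5, 33.3, 30.3 and 26.5%, with 36.4% in the longest runs. In these longest runs brain-only regions made up 12.9%, against 4.47% in runs of 4 and 6.56% of lone regions. The runs of 6 or more hold only 217 regions, and 3 of these runs lie in 1 stretch of chromosome 4 described below.

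**Figure D1:**
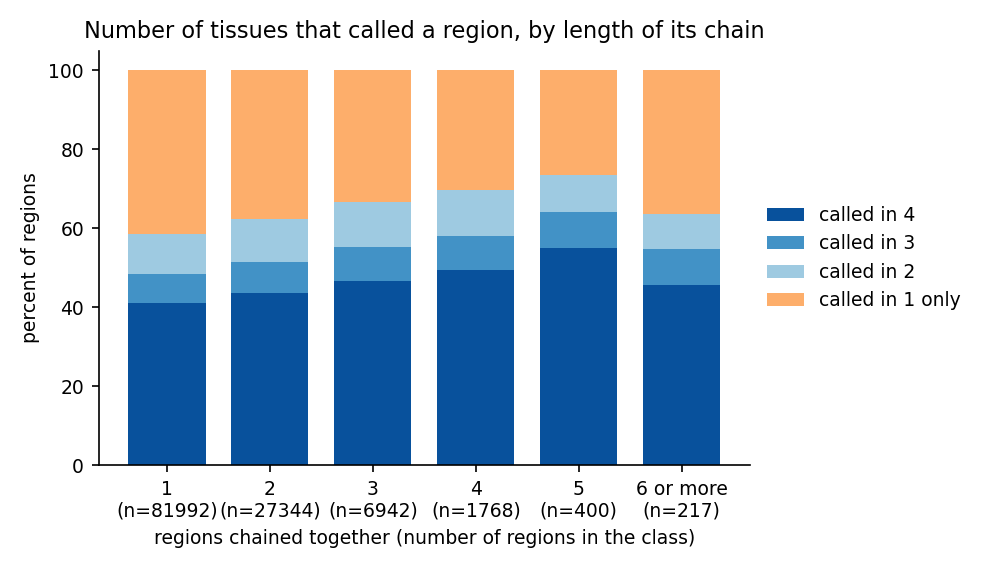
Percent of regions called in 4, 3, 2 or 1 of the tissues (stacked bars), by the number of regions chained together, with the number of regions under each bar. The part called in all 4 tissues grows from 41.2% of lone regions to 55.0% in runs of 5 and is 45.6% in runs of 6 or more.

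Most runs were short. There were 442 runs of 4 regions, 80 of 5, 22 of 6, 7 of 7, 1 of 8, 2 of 9 and 1 of 10. They spanned 2.148 to 16.376 kb, with a median of 6.24 kb, and covered 3.53 Mb in all. Without the posterior trunk library the same rule gave 261 runs. Within a run the median gap was 1377 bases, and 219 of 1830 gaps (11.97%) were under 300 bases. When regions under 300 bases apart were joined first, 423 runs were left. The regions themselves were as wide as elsewhere, with a median of 365 bases against 368 for all regions. Near the limits of the rule, 59 runs had a largest gap between 2900 and 3000 bases, and 44 pairs of shorter chains stood at most 3100 bases apart and would have joined to a run of 4 or more.

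Runs of regions all called in every tissue, and runs with none such, were both a minority. Every region was called in all 4 tissues in 63 runs (11.4%), no region was in 74 (13.3%), and 418 mixed both kinds. At least 1 single-tissue region was present in 391 runs (70.5%). Posterior trunk called every region of 372 runs. The strongest region of a run, by its best percentile, was called in all 4 tissues in 460 runs (82.9%). This follows in part from the ranking, because a region called in all 4 tissues has 4 percentiles from which the best is taken. Strong regions were also mostly shared everywhere. Of all regions at percentiles 60 to 80 by p, 91.7% in posterior trunk and 99.6% in brain were called in all 4 tissues. In distal forelimb and proximal forelimb these were 99.9 and 99.98%.

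Counted by tissue, a run was often dense in posterior trunk alone. Posterior trunk called 4 or more of the regions in 403 runs, brain in 201, distal forelimb in 128 and proximal forelimb in 135. In 208 runs (37.5%) only posterior trunk called that many, in 97 (17.5%) every tissue did, and in 49 both posterior trunk and brain did but neither forelimb part. In 118 runs (21.3%) no tissue called 4 by itself, so these runs exist only in the joined lists. Chained within its own list, posterior trunk gave 399 runs, brain 194, distal forelimb 123 and proximal forelimb 130. The regions called in all 4 tissues, chained alone, gave 83 runs with 350 regions. The order of these counts follows the order of the list lengths except between the forelimb parts.

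**Figure D2:**
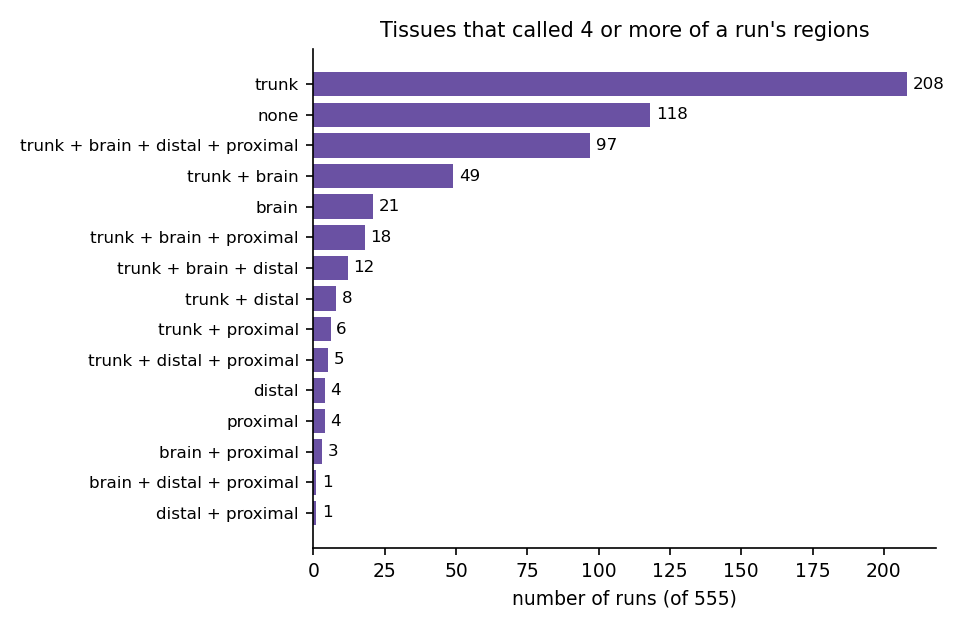
Number of runs, of 555, in which the named tissues called 4 or more of the run's regions each (bars, with counts). Posterior trunk alone leads with 208 runs, no tissue alone comes next with 118, and all 4 tissues follow with 97.

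A long run shared by the tissues lay at the 3′ end of the immunoglobulin heavy chain locus. This run, chr12:113215905-113224529, held 8 regions in 8.63 kb, ended 31.7 kb before the constant segment Igha, and overlapped no gene span. Its first 7 regions were called in all 4 tissues and the last in posterior trunk only. The widest, of 1117 bases at 6.121 kb into the run, was at percentile 74.0 in posterior trunk and 76.8 in brain, with 82.0 in distal forelimb and 80.8 in proximal forelimb. The authors' folds over local background at this region were 4.16, 5.43, 6.26 and 6.08, and the pileups recovered from them were 382, 346, 276 and 264 reads. The local background over the run had a median of 9.65 times the lowest of the list. The embryo tissues here are not B cells, in which this locus rearranges.

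Other runs with every region shared lay in genes of varied function. Myo18a, an unconventional myosin, held 5 shared regions in 6.93 kb. Its 4th region was at percentiles 81.0, 84.8, 93.3 and 93.5 in posterior trunk, brain, distal forelimb and proximal forelimb, and its 5th at 66.9, 60.5, 43.4 and 36.0. These were the strongest and the weakest region of the run in each tissue. Slc37a1, a sugar-phosphate transporter, and Ksr2, a scaffold of the Ras pathway, held 5 shared regions each. So did the run over Aaas, a nuclear pore gene, and Sp7, a transcription factor required for bone formation, where the first region ranked at 88.0, 90.9, 94.99 and 96.6 and the other 4 between 26.5 and 57.2. The run with the most regions all shared was chr9:3022005-3038380, with 7 regions in 16.376 kb and no gene inside. Its percentiles all lay between 34.6 and 60.1, and it stood 3.004 kb from the next run and close to the start of the assembled sequence of chromosome 9. Repeats and mappability could not be checked for this run or for any other.

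Among runs with every region shared, a few had no weak member. In the run in Dnajc11, a mitochondrial cochaperone gene, all percentiles were 64.5 or higher, and the last region stood at 85.8 in posterior trunk and 92.4 in brain, with 97.4 in distal forelimb and 96.9 in proximal forelimb. Cd82, which encodes a tetraspanin membrane protein, held 4 regions with percentiles from 68.1 to 89.97. A similar run lay 18.3 kb from Ppara, a nuclear receptor of fat metabolism, with a lowest percentile of 59.9. The Vgll4 and Espn runs, with 7 regions each, had 5 shared regions and their weaker members at the edges or between shared ones. Vgll4 is a cofactor of TEAD factors and Espn an actin bundler of hair cells. In Espn the regions at 3.584 and 7.578 kb were at percentiles 86.9 and 88.3 in distal forelimb and 80.6 and 78.1 in posterior trunk. They were at 78.6 and 79.5 in brain and 87.2 and 86.6 in proximal forelimb. Ranked by the recovered pileup, they stood at 96.9 and 98.2 in distal forelimb and 99.0 and 98.4 in posterior trunk, so that order turned. By pileup they were at 90.9 and 94.4 in brain and 97.0 and 97.2 in proximal forelimb.

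**Figure D3:**
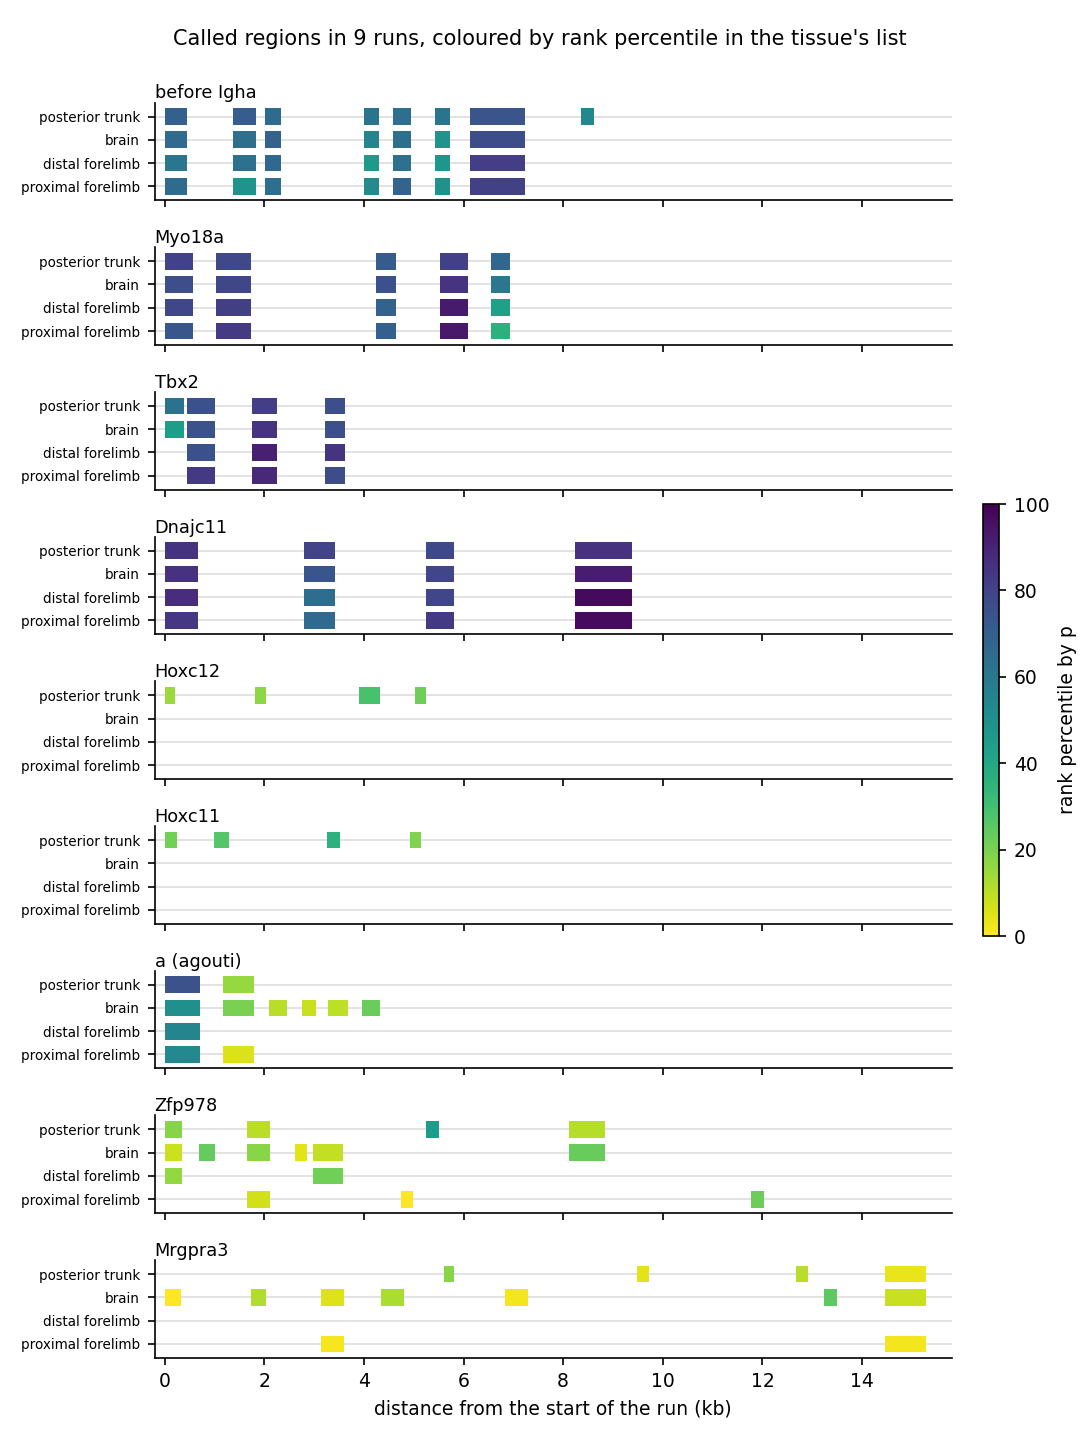
Regions called by each tissue in 9 runs, against the distance in kb from the start of the run, with 1 lane per tissue and the colour giving the rank percentile by p in that tissue's list (dark is strong). The upper 4 runs are called in nearly every lane, and Hoxc12 and Hoxc11 in the posterior trunk lane only. The lowest 3 are called mainly in the brain and posterior trunk lanes. Their percentiles are low apart from the first agouti region and a trunk-only Zfp978 region at 45.7.

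The only Hox genes in runs were Hoxc11 and Hoxc12. Hox genes encode homeobox factors that give position along the body axis, and those numbered 10 to 13 act in the trunk end and the limbs. Of 41 Hox and Evx genes with a place on chromosomes 1 to 19 these 2 overlapped a run, and no gene of the Hoxd cluster, which the study's title names, did. The run chr15:102932506-102937757 in Hoxc12 and the run chr15:102951192-102956342 in Hoxc11 lay 13.4 kb apart, on both sides of the noncoding gene Hotair, and held 4 regions each. All 8 regions were called in posterior trunk only. In the Hoxc12 run their percentiles in the trunk list were 14.9, 17.0, 29.0 and 22.0, with folds of 2.43, 2.45, 2.83 and 2.60. In the Hoxc11 run they were 21.4, 26.9, 35.7 and 19.1, with folds of 2.64, 2.87, 3.31 and 2.55. Their pileups of 42 to 57 reads stood over local backgrounds with medians of 1.93 and 1.78 times the lowest. All 8 rank in the lower part of the longest list. When pileups were thinned by the lowest background to the level of distal forelimb, with a −log10 p of at least 5 in every list, 2 of the 4 Hoxc11 regions and 0 of the 4 Hoxc12 regions were still called in posterior trunk, and none in the other tissues.

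In 3 further runs every region was trunk-only, so there were 5 in all. Atp5g1, a subunit of the mitochondrial ATP synthase, held 4 regions at percentiles 30.4, 4.5, 19.2 and 2.0. The other runs were in Ccdc117 and near Tmem26, which were picked out after their values were seen. No run was called wholly in brain only, in distal forelimb only or in proximal forelimb only. The run with the most trunk-only regions was in Zfpm1, a partner of GATA factors, where 5 of 6 regions were trunk-only at percentiles from 18.3 to 41.6. Its 1 shared region was at 5.3 in posterior trunk and 43.9 in brain, with 17.5 in distal forelimb and 22.7 in proximal forelimb.

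Brain-only regions were most numerous in the Mrgpra3 run described below, with 5, and in a run in Zfp993 and a run in the agouti gene (symbol a), with 4 each. The agouti gene encodes a signal for yellow pigment. In the run chr2:155019701-155024024 brain called 6 of 6 regions and 4 of them alone, at percentiles 10.9, 8.2, 9.8 and 23.0. The first region, called in all tissues, was at 74.6 in posterior trunk and 50.2 in brain, with 54.6 in distal forelimb and 52.8 in proximal forelimb. The second was called in posterior trunk, brain and proximal forelimb at 15.9, 20.1 and 5.7. After the same thinning brain called 3 of the 6. The only run with no region in posterior trunk, chr4:146891972-146894708 in Zfp993, had 4 brain-only regions and 1 distal-only region, with percentiles from 0.3 to 18.9.

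The 3 runs with the most regions lay among repeated gene families, and most of their regions were weakly called. The largest, chr7:47595286-47610562 in and around Mrgpra3, a receptor gene of itch neurons, had 10 regions in 15.3 kb, of which none was shared by all tissues and 8 were single-tissue. Brain called 7, posterior trunk 4, proximal forelimb 2 and distal forelimb 0, and all percentiles were between 0.1 and 24.6. After thinning 2 were called in brain and 0 in each other tissue, whereas the run before Igha kept all 8 regions in posterior trunk and 7 in each other tissue. Runs of 9 regions lay at chr4:146483414-146495326, with 1 shared region, and at chr4:147335035-147347068 in Zfp978, with none. In the run at chr4:146483414-146495326 the shared region was at percentile 71.6 in posterior trunk and 54.0 in brain, with 50.6 in distal forelimb and 41.9 in proximal forelimb, and the other 8 were between 3.3 and 29.5. In the Zfp978 run, percentiles in brain were from 4.6 to 23.8 and the highest of any tissue was 45.7, in posterior trunk.

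Several runs lay close together in stretches of under 1 Mb, which were picked out after their values were seen. On chromosome 4, 8 runs with 45 regions lay between 146452608 and 147437294 over Zfp992, Zfp981, Zfp993 and Zfp978, zinc finger genes of 1 family. Brain called 33 of these regions, posterior trunk 22, proximal forelimb 19 and distal forelimb 11, and only 4 were shared. On chromosome 5, 7 runs with 32 regions lay between 14961015 and 15693673 among Speer genes, a rodent family of testis genes. There brain called 26, posterior trunk 22, proximal forelimb 14 and distal forelimb 12, and 8 were shared. In both stretches brain called more regions than posterior trunk, whereas over all runs it called fewer, 1674 against 2123. After thinning, brain and posterior trunk each called 2 regions at chr4:146483414-146495326 and 1 in the Zfp992 run. They called 3 and 2 in the Zfp978 run, and 2 and 0 both in the Zfp993 run and at chr5:14986998-14991051. No other run of these stretches was counted singly. In the Zfp992 and Zfp978 runs the median background was 2.33 and 2.75 times the lowest in brain, against 1.46 and 1.86 in posterior trunk. At the chr5 run it was 1.0 in both, and its part was not tested. On chromosome 15, 7 runs with 29 regions from the Aaas and Sp7 run to Copz1 took in both Hoxc runs. Posterior trunk called 28 of them, brain 18, proximal forelimb 17 and distal forelimb 16, and 15 were shared. On chromosome 11, 6 runs with 31 regions over Sfi1, a centrosome gene, and Osbp2 had 21 shared regions. By chromosome, the share of regions in runs was from 1.13% on chromosome 14 to 3.30% on chromosome 11.

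One of the Sfi1 runs had the highest local background of any run, at a median of 20.1 times the lowest. It held 7 regions, 6 of them shared, with pileups of up to 340 reads in posterior trunk and 284 in brain, with 218 in distal forelimb and 246 in proximal forelimb. The authors' folds there were only 1.33 to 2.70. A second Sfi1 run, 6 regions long, had a median background of 1.0 times the lowest, and 4 shared regions.

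Few genes of any list overlapped a run. A gene counted when its RefSeq span overlapped a run, and 548 of 47042 genes did (1.165%), or 399 of 20665 protein-coding genes (1.93%). Forelimb bud genes gave 3 of 30, and their runs held 7 shared regions of 12. In Tbx2, a T-box repressor of the limb bud, 3 of 4 regions were shared, and the region at 1.756 kb was at 81.7 in posterior trunk and 84.8 in brain, with 91.0 in distal forelimb and 88.6 in proximal forelimb. The first Tbx2 region was called in posterior trunk at 62.8 and in brain at 44.8, and in neither forelimb part. In Irx5, an Iroquois homeobox gene, 3 of 4 regions were shared, at percentiles from 51.5 to 76.9. In Bmp4, a secreted growth factor, 1 of 4 was shared, at 43.3, 50.6, 35.1 and 44.1, and another was called in posterior trunk and both forelimb parts at 59.3, 19.9 and 29.1 but not in brain.

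Of the other lists, imprinted genes gave 1 of 34, the paternally expressed Zrsr1, which lies within Commd1. Its run had 2 shared regions, at percentiles 71.3 and 73.1 in posterior trunk, 62.9 and 70.6 in brain, 50.1 and 76.1 in distal forelimb and 57.9 and 73.3 in proximal forelimb. It also had 2 trunk-only regions at 38.1 and 40.7. Ribosomal protein genes gave 2 of 76, Rps10 and Rps16. Zinc finger genes of the Zfp series gave 11 of 360, in 12 runs with 56 regions, of which 14 were shared, and brain called 41 and posterior trunk 37. None overlapped a run among 29 telencephalon genes, 28 tailbud and presomitic mesoderm genes, 11 CTCF and cohesin genes, 9 blood and endothelium genes, 58 clustered protocadherins, 67 histone genes, 1111 olfactory receptors and 356 vomeronasal receptors. The vomeronasal list held numbered receptor symbols only and left out pseudogenes. The pseudogene Vmn2r-ps16 overlapped the runs chr4:146483414-146495326 and chr4:146452608-146457885. Genes of different length have different chances to overlap a run, and no test of a list was made. Over all runs, 191 (34.4%) lay inside 1 gene span, 127 (22.9%) touched no gene, and 102 of the 541 runs off chromosome 18 (18.9%) had a region over a promoter window. Chromosome 18 was left out of promoter counts because the promoter table used has no windows there. Region by region the runs were close to the background, with 4.81% of run regions against 4.40% of all regions over a promoter window and 61.4% against 60.8% in a gene span.

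The strongest region of a run was often the same one in each tissue. Of 95 runs with at least 4 regions called in all tissues, 60 (63.2%) had the same strongest region in every tissue, and 52 (54.7%) had the same weakest. Across the 1192 run regions called in all tissues, Spearman's rho between tissues was lowest between posterior trunk and proximal forelimb, at 0.861, and highest between the forelimb parts, at 0.958. Over all 50167 regions called in all tissues these values were 0.880 and 0.959. The points share libraries, local background and neighbours.

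For some runs the tissues ranked the same regions differently, and the runs named here were chosen for large differences in own-list rank. The difference was the median percentile in 1 tissue minus the median of the other tissues. Over 95 runs it had a median of 7.78 in posterior trunk and a highest value of 35.3, in B3glct. In distal forelimb the median was −3.23 and the highest value 5.93, in the Rtn2 and Fosb run. Because a longer list gives a shared region a higher percentile by itself, ranks were also taken among the 50167 regions called in all tissues. In B3glct, a glycosyltransferase gene, the own-list medians of the 4 shared regions were 69.5 in posterior trunk and 48.3 in brain, with 31.8 in distal forelimb and 34.2 in proximal forelimb. Among shared regions they were 37.3, 27.5, 17.2 and 20.7, so the order between posterior trunk and the rest was kept. The last B3glct region was nearly level, at own-list percentiles 81.1, 78.3, 76.1 and 81.7, while the third was at 73.8, 55.1, 35.2 and 29.8. In Fry, a gene of the NDR kinase pathway, the own-list medians of the 4 shared regions were 68.2 in posterior trunk and 40.6 in brain, with 37.6 in distal forelimb and 26.3 in proximal forelimb. Among shared regions they were 36.9, 21.8, 24.0 and 15.2, so that brain and distal forelimb changed places. The run over Rtn2 and Fosb, an AP-1 factor, stood the other way, with own-list medians of its 4 shared regions of 80.9 in posterior trunk and 83.0 in brain, with 89.0 in distal forelimb and 87.0 in proximal forelimb. Among shared regions they were 60.4, 75.7, 86.2 and 83.9. Its first region was at 86.8 in posterior trunk and 90.7 in brain, with 95.8 in distal forelimb and 98.0 in proximal forelimb. Ranked by pileup in the own list, this order was not kept. The first region was then at 99.9, 99.4, 99.6 and 99.9, and the region at 4.81 kb at 99.2, 99.4, 99.5 and 99.2. The last was at 96.9, 92.8, 96.3 and 92.8. The shared region at 3.431 kb was highest in posterior trunk, at 88.0, 75.6, 70.0 and 68.6. How far the closeness of the highest pileups of the lists, given below, shapes these ranks was not tested.

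Run regions called in all tissues were seldom among the strongest by p, but were more often so by pileup. Ranked by p among the shared regions, 8 of 1192 (0.671%) lay over percentile 90 in posterior trunk and 30 (2.52%) in brain, with 74 (6.21%) in distal forelimb and 72 (6.04%) in proximal forelimb, against 10% of all shared regions in each tissue. Ranked by the pileup at the summit they were 164 (13.8%), 152 (12.8%), 163 (13.7%) and 161 (13.5%), against 9.87, 9.97, 10.03 and 10.02% of all shared regions. Medians showed the same turn. They were 42.2, 48.7, 48.2 and 48.0 by p, and 57.1, 58.1, 58.0 and 58.4 by pileup, each beside about 50 for all shared regions. The direction of the rank difference in every tissue thus depends on whether the signal is set against its local background. The highest pileups of the lists were 399, 393, 368 and 365 reads in the same order of tissues. They lie close together, although posterior trunk had 2.21 times the lowest background of distal forelimb. A ceiling on the pileup was not tested, so the size of the shares by p cannot be compared between tissues.

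**Figure D4:**
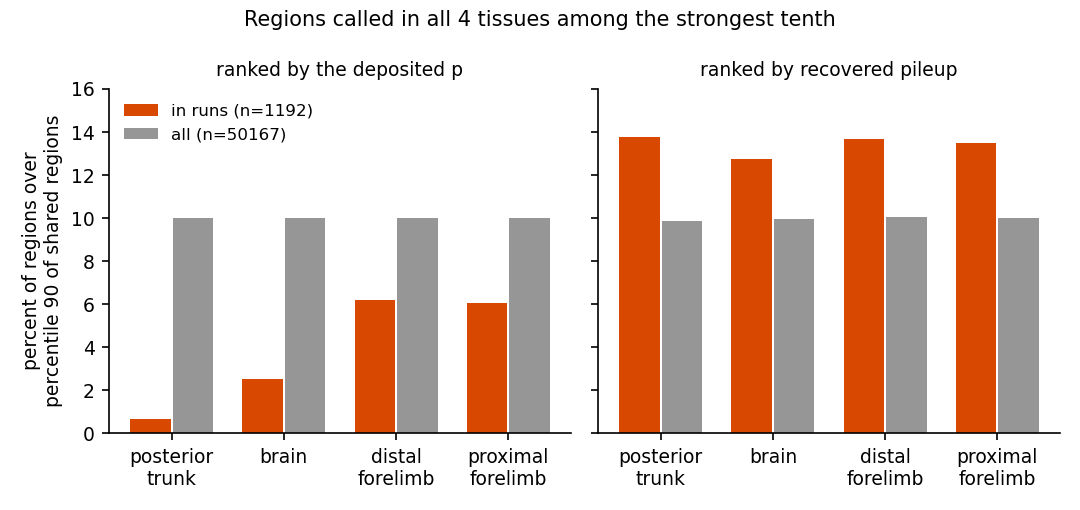
Percent of regions over percentile 90 of the regions called in all 4 tissues, in each tissue, for run regions (orange, left) and all such regions (grey), ranked by the deposited p (left panel) or by the recovered pileup (right panel). Run regions are below the 10% of all regions by p, at 0.671 to 6.21%, and above it by pileup, at 12.8 to 13.8%.

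Local background moved with these ranks. Over the shared run regions its median was 3.48 times the lowest of the list in posterior trunk and 2.65 in brain, with 3.13 in distal forelimb and 2.93 in proximal forelimb, against 1.93, 1.61, 1.71 and 1.64 over all shared regions. The median pileups were 226.5, 159, 91 and 91 reads, against 198, 128, 72 and 71. The median authors' folds were lower in the runs, at 6.19, 6.22, 6.20 and 6.09 against 9.68, 8.46, 8.72 and 8.28. Background values above the lowest were whole multiples of 0.02, within 0.1 of a step, in every row of the lists. By chain length the median background was 1.21 for lone regions, 1.48 in pairs, 1.87 in runs of 3, 2.298 in runs of 4, 2.60 in runs of 5 and 2.77 in longer runs. The window from which the background was taken is not stated, and reads of close neighbours could count towards it. Its rise with chain length therefore cannot be told apart from the closeness rule that made the runs. The part of the background in the ranks was not tested.

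Runs with every region shared stood on a higher background than runs with none. The median over runs was 4.28 times the lowest, with a range of 1.78 to 8.48, where every region was shared. It was 1.43, with a range of 1.0 to 3.47, where none was. Over all 555 runs it was 2.39, and 49 runs (8.83%) were above 5. Of single regions, 9.69% in runs and 0.375% of all were above 5. The difference was also present over all regions. In posterior trunk the median background was 1.93 over all shared regions and 1.165 over all trunk-only regions. In the runs, the median pileup there was 226.5 reads for shared and 57 for trunk-only regions. Reads of shared regions could count towards the background, so a tie between background and sharing cannot be told apart from these reads.

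**Figure D5:**
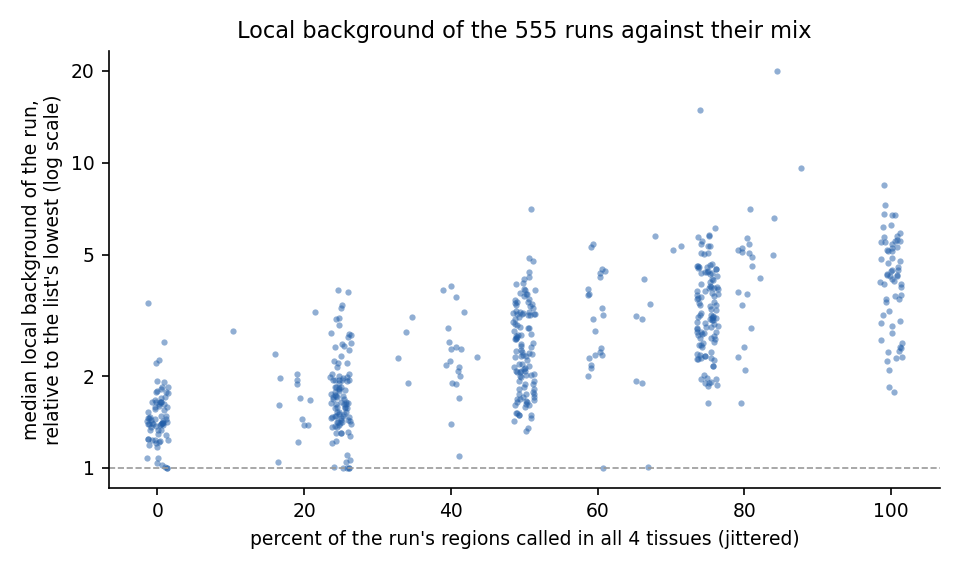
Median local background of each of the 555 runs, as a multiple of the lowest background of the list (log axis), against the percent of its regions called in all 4 tissues (points, moved slightly sideways to show overlaps). The dashed line marks 1. Runs with no shared region lie between 1.0 and 3.47, and runs with every region shared between 1.78 and 8.48.

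Single-tissue regions in runs were weak, though by p they ranked above those elsewhere. Their median percentile was 27.5 in posterior trunk and 13.0 in brain, with 7.97 in distal forelimb and 10.7 in proximal forelimb, against 19.98, 7.18, 5.39 and 5.24 for all single-tissue regions. The median authors' folds were 2.67 against 2.92, 2.54 against 2.52, 2.98 against 3.06 and 3.10 against 3.04, lower in the runs in posterior trunk and distal forelimb and slightly higher in brain and proximal forelimb. Their local background in posterior trunk was 2.13 against 1.165 times the lowest. No single-tissue region, in runs or elsewhere, was over percentile 90 of its list. Among peaks from percentile 0 to 20 by p, the share called in all tissues was 8.90% of run regions against 2.07% of all regions in posterior trunk, 15.2% against 12.3% in brain, 40.7% against 29.5% in distal forelimb and 36.3% against 34.1% in proximal forelimb. Ranked by pileup it was 12.3% against 2.13%, 18.5% against 12.3%, 36.8% against 30.4% and 30.7% against 34.3%, so the direction turned in proximal forelimb. From percentile 20 to 40 by p the shares were 13.2% against 8.47%, 41.3% against 48.2%, 74.0% against 74.1% and 68.3% against 75.6%. By pileup they were 8.71% against 9.55%, 31.7% against 50.1%, 61.9% against 76.4% and 54.9% against 76.1%, lower for run regions in every tissue.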

How the data were processed

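CTCF ChIP-seq peak lists of 4 embryonic mouse tissues, 1 library each, were used. MACS2 2.1.1.20160309, SAMtools 1.9, Bowtie2 2.3.5 and cutadapt 1.16 are named in the submitters' processing notes, with the build mm10. Options, any control library and the treatment of repeated or multiply mapped reads were not given in the sources used here. Each list was deposited by the authors in the narrowPeak layout and holds a score, a fold (a ratio of summit pileup to local background), a −log10 p-value, a −log10 q-value and the summit offset of each peak. Folds and ranks belong to the list they come from, and those of different lists are set side by side without a test. Rows with the same interval were joined to 1 peak with the strongest summit.

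Pileup and local background were recovered from fold and p, with a pseudocount of 1, and the local background is given relative to the lowest of the list. In simulated data made with the same formulas, the pileup was recovered for 100% of 20000 peaks. The number of runs found was 100% of the 1734 made, with gaps kept clear of the 3000-base limit. The lowest folds of the lists were not simulated. These tests check the code only, and not whether the formulas hold for these data. The members and gene lists were chosen with earlier results of these data known. Gene spans and promoter windows (250 bases before the start) came from RefSeq, GRCm38.p6; the gene table gives no strand or exons.

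With 1 library per tissue no test between tissues was made. Runs were ordered by number of regions and then by shorter span. Those named were the first 10, the first 5 with all or with no region shared, and per tissue the 3 with the most regions called there only. Also named were the 3 per tissue with the highest relative rank, those with the highest and lowest weakest member, up to 4 per gene list, and up to 5 dense in brain or a forelimb part and nearly empty in posterior trunk. Other names are marked in the text. Alternatives were other gap and run lengths, stricter or equal lists, thinned pileups, other joining rules and leaving out each library. Python 3.11.15, numpy 2.4.6, pandas 2.3.3, scipy 1.17.1 and matplotlib 3.10.9 were used.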

Additional observations from a re-analysis of the deposited data

Results flagged for a closer look

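Runs made by the same rule were also present on sequences outside chromosomes 1 to 19, which no comparison above uses. On X there were 11 runs with 57 regions, 29 of them called in all 4 tissues. On Y there were 7 runs with 39 regions, 11 of them called in all 4 tissues, and the longest held 12 regions. Unplaced and unlocalised sequences gave 4 runs with 54 regions, 34 of them called in all 4 tissues, and 1 run of 40 regions. The mitochondrial sequence gave 0 runs from 4 regions. There are no control samples, and no explanation of these counts was tested.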

How the results depend on the processing

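In each of the 14 alternatives run, run regions were called in all of the tissues used more often than all regions, by 2.59 to 11.7 percentage points, and in 1 tissue only less often, by 6.41 to 12.3 points. Of 88 values under alternatives, 32 were near the value given above, 52 moved and 4 reversed. A largest gap of 2000 bases gave 222 runs with 939 regions and no shared region in 17.1% of runs. A gap of 5000 bases gave 1842 runs with 8461 regions and 9.83%. Keeping runs of 3 gave 2869 runs with 9327 regions, 47.6% of regions shared and 32.5% in 1 tissue only, with every region shared in 15.5% of runs and none in 21.5%. Keeping runs of 5 or more gave 113 runs with 617 regions, every region shared in 7.96% of runs and none in 8.85%. At a −log10 q of at least 5, 59.1% of regions were shared and 23.6% in 1 tissue only, and 15% and 6.0% of runs were all shared and none shared. Lists cut to the shortest length gave 279 runs with 1188 regions, 64.9 and 15.7% of regions, and 21.5 and 6.09% of runs. Pileups thinned to the list with the lowest background, taken as depth, gave 355 runs with 1516 regions, 61.9 and 20.7% of regions, and 16.6 and 6.20% of runs. Joining regions under 300 bases apart gave 54.6 and 26.8% of regions and 9.93% of runs with none shared. The thinning was a single random draw. It came with a −log10 p of at least 5 in every list, so its values mix depth with a stricter cut.

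With a library left out, shared means called in all 3 remaining tissues. Without posterior trunk there were 261 runs with 1114 regions, 67.2% of regions shared and 20.5% in 1 tissue only, and 28.4% and 5.75% of runs all shared and none shared. Without brain 56.5% of regions were shared and 32.3% in 1 tissue only, with none shared in 8.71% of runs. Without distal forelimb 55.0% of regions were shared, with 15.5% of runs all shared and 9.07% none shared. Without proximal forelimb these were 54.6% of regions and 10.3% of runs with none shared. Leaving out regions with a background over 5, an alternative chosen after seeing the data, gave 44.7 and 33.5% of regions and 7.01% of runs all shared. Ranks by pileup were also chosen after seeing the data. The share of shared run regions over percentile 90 of the own list, minus that of all shared regions, was −17.1, −8.57, −4.41 and −3.82 points by p in posterior trunk, brain, distal forelimb and proximal forelimb, and reversed to 6.03, 3.42, 4.12 and 4.46 points by pileup. No paired analysis was possible because there was only 1 library for each tissue. Absolute depth is unknown, and a region missing from a list may lie under its threshold.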
